A study of Mus musculus with 12 samples.

Results

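miR-221 and miR-222 are 2 microRNAs made from neighbouring hairpins on the mouse X chromosome, and all 4 of their mature arms have a row among the 1251 miRNA rows of the deposited table. The rows were chosen by name: `mmu-mir-221-3p`, `mmu-mir-222-3p` and the matching 5p arms. All 4 arms were among the 544 rows tested, which are those above the lower limit of the table in at least 2 libraries. Small RNA was sequenced from 12 libraries of C57Bl6 mice. 4 libraries were of cutaneous squamous cell carcinoma (SCC) from TAp63-/- mice (KO SCC), and 2 were of SCC from wild-type mice (WT SCC). These mice were older than 35 weeks and had received chronic ultraviolet radiation (UVR) at 2.5 kJ per square metre, 3 times a week. The other libraries were of dorsal skin from untreated mice aged 4 weeks, 3 from TAp63-/- mice (KO skin) and 3 from wild-type mice (WT skin). TAp63-/- mice lack the isoform of the transcription factor p63 that carries its N-terminal transactivation domain, and the labels name no tissue limit of that deletion. Tumour and skin differed in tissue, UVR and age at once, and in the form of the library titles, so these cannot be told apart. The labels do not say whether each library came from a separate mouse, and p-values measure only the spread between these samples. Library numbers below follow accession order and pair nothing.

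miRNAs are short RNAs that guide Argonaute proteins to messenger RNAs by pairing of the seed, bases 2 to 8 of the mature strand, which lowers the output of the paired message. In human cancer cells, miR-221 and miR-222 are known to repress CDKN1B and CDKN1C, inhibitors of the cyclin-dependent kinases that drive the cell cycle, and both are therefore grouped with growth-promoting miRNAs. In endothelial and blood-forming cells they are known to repress KIT, the receptor for stem cell factor. The 3p arm of each hairpin is the usual guide strand, and the 5p arm is the less abundant partner.

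The mature sequences are shown because the guide arms share their targeting end, with the seed in capitals. They are from RefSeq on build GRCm38.p6.
mmu-miR-221-3p: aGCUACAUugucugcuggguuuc
mmu-miR-222-3p: aGCUACAUcuggcuacugggucu
mmu-miR-221-5p: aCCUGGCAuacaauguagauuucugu
The guide arms are 23 bases long and identical over their first 8 bases, seed included, and 12 of the 23 positions differ. The miR-221 5p arm has 26 bases and another seed. miR-222-5p is described by name. The only other mature miRNA of the RefSeq table with the seed GCUACAU was miR-1928, encoded on chromosome 1, whose row was at the lower limit in all 12 libraries.

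The hairpins are shown to place the arms, with the mature arms in capitals (both arms of miR-221, the 3p arm of miR-222).
Mir221: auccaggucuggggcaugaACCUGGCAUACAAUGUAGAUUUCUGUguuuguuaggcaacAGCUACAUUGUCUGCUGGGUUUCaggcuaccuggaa
Mir222: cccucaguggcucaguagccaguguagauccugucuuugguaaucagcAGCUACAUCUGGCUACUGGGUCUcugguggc
On GRCm38.p6, Mir221 lies at chrX:19146294-19146388 and Mir222 at chrX:19146893-19146971, both on the minus strand and 504 bases apart. Each is annotated as a miRNA gene with 1 exon. The GENCODE annotation shows no other gene over either hairpin. The other gene within 30000 bases of them is Gm14636, a processed transcript at chrX:19156981-19167241 on the minus strand.

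The deposited values are log2 levels that the authors had quantile normalized, so that every library holds nearly the same set of values and a level stands for a rank. Values under a linear level of 10 had been set to that floor, a log2 value of 3.32. Read depth is unknown. The number of miRNAs above the floor was 432 to 545 in KO SCC, 402 to 420 in WT SCC, 370 to 465 in KO skin and 390 to 433 in WT skin. The library labels were checked against marker miRNAs. miR-205-5p, a keratinocyte miRNA, was above the floor in all 12 libraries and higher in SCC (log2 difference 1.55 ± 0.19 SE, adjusted p = 0.000106, limma with Benjamini-Hochberg adjustment). The keratinocyte markers did not rise as a set: of 5, 1 was called higher and 1 lower, with a median log2 difference of -0.45. The 4 striated muscle miRNAs were all lower in SCC, led by miR-206-3p (-6.20 ± 0.43, adjusted p = 7.76e-06). In the same comparison, SCC against skin with genotypes averaged, 21.5% of all tested miRNAs were called lower. In bulk tissue, fewer cells of a type and less RNA per cell cannot be told apart.

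miR-221-3p was abundant in every library, between rank 52 and rank 85 of the table. Its log2 level was 12.002, 13.34, 11.85 and 12.45 in KO SCC libraries 1 to 4. It was 13.63 and 12.15 in WT SCC libraries 1 and 2. KO SCC library 2 and WT SCC library 1 stood above all the others. The level was 11.73, 12.22 and 12.11 in KO skin libraries 1 to 3, and 11.85, 12.07 and 11.95 in WT skin libraries 1 to 3. The skin libraries lay close together, and 3 of the 6 SCC libraries were above every skin library. The other 3 lay within the range of skin, so the groups overlap. None was below skin.

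miR-222-3p was lower than its partner in all 12 libraries, between rank 73 and rank 121, and had a like distribution. Its log2 level was 10.69, 12.38, 10.75 and 11.35 in KO SCC libraries 1 to 4, and 11.95 and 11.29 in WT SCC libraries 1 and 2. It was 10.75, 11.17 and 10.48 in KO skin libraries 1 to 3, and 10.71, 10.94 and 11.10 in WT skin libraries 1 to 3. The same KO SCC and WT SCC libraries held its highest levels, in the opposite order. 4 of the 6 SCC libraries were above every skin library and the other 2 were within the range of skin.

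miR-221-5p lay far below its guide arm. Its log2 level was 7.15, 8.90, 6.34 and 7.18 in KO SCC libraries 1 to 4, and 8.66 and 7.72 in WT SCC libraries 1 and 2. It was 8.35, 7.64 and 7.55 in KO skin libraries 1 to 3, and 8.38, 8.22 and 7.90 in WT skin libraries 1 to 3. SCC libraries fell on both sides of skin: KO SCC library 2 and WT SCC library 1 were above every skin library, and KO SCC libraries 1, 3 and 4 were below every one.

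miR-222-5p was the scarcest of the arms and was at the floor in 3 of 12 libraries. Its log2 level was at the floor, 6.33, 5.19 and 4.48 in KO SCC libraries 1 to 4, and 5.997 and at the floor in WT SCC libraries 1 and 2. It was 5.41, 4.07 and 3.95 in KO skin libraries 1 to 3, and at the floor, 4.27 and 5.67 in WT skin libraries 1 to 3. The groups overlapped almost wholly, and its highest levels were again in KO SCC library 2 and WT SCC library 1.

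**Figure D1:**
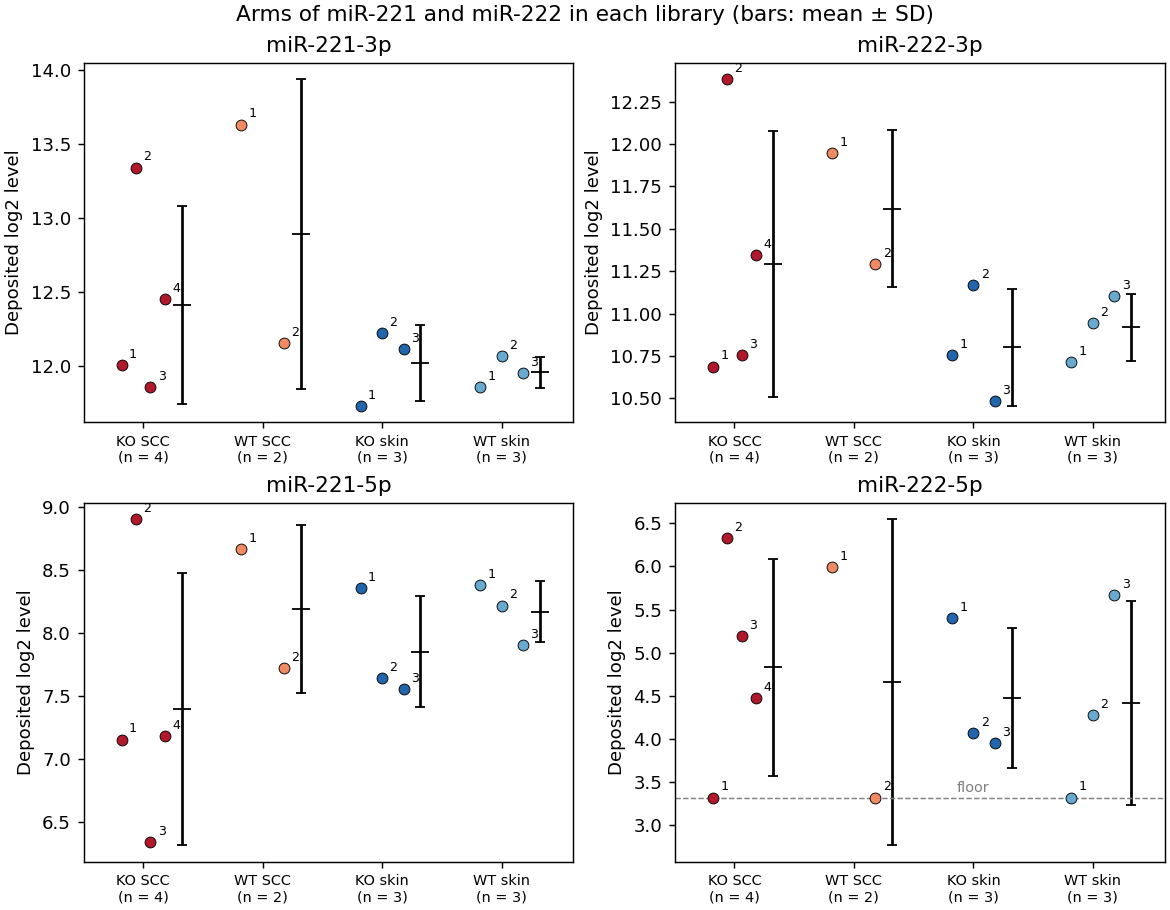
Deposited log2 level of each arm of miR-221 and miR-222 by group, with points for single libraries (the number beside a point is the library number) and bars for mean ± SD. Each panel has its own axis, and none starts at 0. KO SCC library 2 and WT SCC library 1 are the highest in all 4 panels, while the guide arms of the other SCC libraries lie near or within the skin range.

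Neighbouring group means of the guide arms lay within the spread of their libraries. Mean log2 levels of miR-221-3p were 12.41 ± 0.67 in KO SCC (SD, n = 4), 12.89 ± 1.05 in WT SCC (n = 2), 12.02 ± 0.26 in KO skin (n = 3) and 11.95 ± 0.11 in WT skin (n = 3). The order of the levels thus ran from WT SCC through KO SCC and KO skin down to WT skin, and no neighbours in it lay farther apart than the larger of their SDs. miR-222-3p averaged 11.29 ± 0.78 in KO SCC, 11.62 ± 0.46 in WT SCC, 10.80 ± 0.35 in KO skin and 10.92 ± 0.20 in WT skin. Here too WT SCC was highest and KO SCC next, with the skin groups in the other order, and neighbours overlapped. Groups farther apart in the order did not always overlap: both WT SCC libraries were above all WT skin and KO skin libraries for miR-222-3p. How many of all miRNAs did the same was not counted. The difference of WT SCC from WT skin was not called for this arm (adjusted p = 0.345, limma), where 8.82% of all tested miRNAs were called higher. Libraries of 1 group lay farther apart in SCC than in skin. The pooled within-group SD of miR-221-3p was 0.782 in SCC and 0.198 in skin, and that of miR-222-3p was 0.718 in SCC and 0.281 in skin. For miR-221-5p it was 0.993 in SCC and 0.355 in skin. Over the 315 miRNAs above the floor in all libraries, the median SD was 0.549 in SCC and 0.306 in skin, so a wider spread in SCC was general. The difference in spread was not tested.

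The first comparison asked whether the arms changed with the tumour, as the mean of the KO and the WT difference of SCC from skin. miR-221-3p was 1.59-fold higher in SCC (log2 difference 0.66 ± 0.31 SE, 95% confidence interval -0.03 to 1.36), and did not pass the threshold of an adjusted p under 0.05 (adjusted p = 0.119, limma over 544 miRNAs). miR-222-3p was 1.51-fold higher (0.60 ± 0.31, interval -0.08 to 1.27, adjusted p = 0.144). The intervals reach past a 2-fold rise and include no change, so these libraries do not settle a change of that size. miR-221-5p differed by -0.22 ± 0.41 (interval -1.11 to 0.67, adjusted p = 0.691), and miR-222-5p by 0.30 ± 0.66 (interval -1.16 to 1.75, adjusted p = 0.740). None of the 4 arms was called, in a comparison where 41.9% of all tested miRNAs were (228 of 544).

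The call of miR-221-3p depended on the WT SCC libraries, of which there were 2. Without WT SCC library 2 the averaged difference was 1.04 and was called (adjusted p = 0.0221). Without WT SCC library 1 it was 0.29 (adjusted p = 0.524). Each leaves a lone WT SCC library whose spread is taken from the other groups. Without KO SCC library 2 it was 0.51 (adjusted p = 0.143). The averaged difference of miR-222-3p was 0.43 without WT SCC library 1, 0.41 without KO SCC library 2 and 0.76 without WT SCC library 2, and none of these was called.

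Within a genotype, the guide arms were higher in SCC in both mouse lines without passing the test. In KO mice the difference of SCC from skin was 0.39 ± 0.40 for miR-221-3p (interval -0.49 to 1.28, adjusted p = 0.490) and 0.49 ± 0.39 for miR-222-3p (interval -0.37 to 1.35, adjusted p = 0.365). No arm was called there, against 34.2% of tested miRNAs (186 of 544). Most of the KO difference came with 1 tumour: without KO SCC library 2 it was 0.08 for miR-221-3p and 0.13 for miR-222-3p. In wild-type mice the difference was 0.94 ± 0.48 for miR-221-3p (interval -0.12 to 2.00, adjusted p = 0.221) and 0.70 ± 0.47 for miR-222-3p (interval -0.33 to 1.73, adjusted p = 0.345). No arm was called, against 18.2% of tested miRNAs (99 of 544, and 30 without WT SCC library 1). Without WT SCC library 2 the miR-221-3p difference was 1.68 and was called (adjusted p = 0.0422). Without WT SCC library 1 it was 0.20 (adjusted p = 0.959). The 5p arms were not called either, with -0.46 ± 0.52 in KO mice (-0.96 without KO SCC library 2, adjusted p = 0.0657, and -0.11 without KO SCC library 3) and 0.02 ± 0.62 in wild-type mice for miR-221-5p, and with 0.35 ± 0.85 in KO mice and 0.24 ± 1.02 in wild-type mice for miR-222-5p.

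The study's title concerns miRNAs under the control of TAp63, and the next comparisons set KO against wild type. In SCC, miR-221-3p differed by -0.48 ± 0.46 (interval -1.49 to 0.53, adjusted p = 0.753) and miR-222-3p by -0.33 ± 0.44 (interval -1.30 to 0.65, adjusted p = 0.850). Neither value was stable. Without WT SCC library 1 it was 0.26 for miR-221-3p and near 0 for miR-222-3p, and without KO SCC library 2 it was -0.79 for miR-221-3p and -0.69 for miR-222-3p (adjusted p = 0.493 and 0.442). miR-221-5p differed by -0.80 ± 0.59 (adjusted p = 0.714) and miR-222-5p by 0.17 ± 0.97 (adjusted p = 0.972). With 1 library left out at a time, the value of miR-221-5p ran from -1.30, without KO SCC library 2 (unadjusted p = 0.00912, adjusted p = 0.236), to -0.33, without WT SCC library 1. No arm was called, against 0.184% of tested miRNAs, which was 1 miRNA. In skin, where the guide arms of each group lay closer together than in SCC, miR-221-3p differed by 0.06 ± 0.43 (interval -0.88 to 1.01, adjusted p = 1) and miR-222-3p by -0.12 ± 0.42 (interval -1.04 to 0.80, adjusted p = 1). miR-221-5p differed by -0.32 ± 0.56 and miR-222-5p by 0.05 ± 0.91 there. No arm was called, against 0% of tested miRNAs, of which 31 had an unadjusted p under 0.05. Differences of the guide arms of up to about 2-fold in skin lie within their intervals. The intervals of the 5p arms were wider, at -1.54 to 0.90 for miR-221-5p and -1.95 to 2.055 for miR-222-5p. The width of all these intervals comes from a spread shared by all 4 groups, and so in part from the tumours. The pooled within-group SD in skin was 0.198 for miR-221-3p and 0.281 for miR-222-3p, against 0.782 and 0.718 in SCC.

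The interaction, the KO tumour difference minus the wild-type one, was -0.54 ± 0.63 for miR-221-3p (interval -1.93 to 0.84, adjusted p = 0.854) and -0.21 ± 0.61 for miR-222-3p (interval -1.55 to 1.13, adjusted p = 0.971). It was -0.48 ± 0.81 for miR-221-5p and 0.12 ± 1.33 for miR-222-5p. No arm was called, against 0% of tested miRNAs (41 with an unadjusted p under 0.05). The larger wild-type value of miR-221-3p is thus not shown to differ from the KO value.

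**Figure D2:**
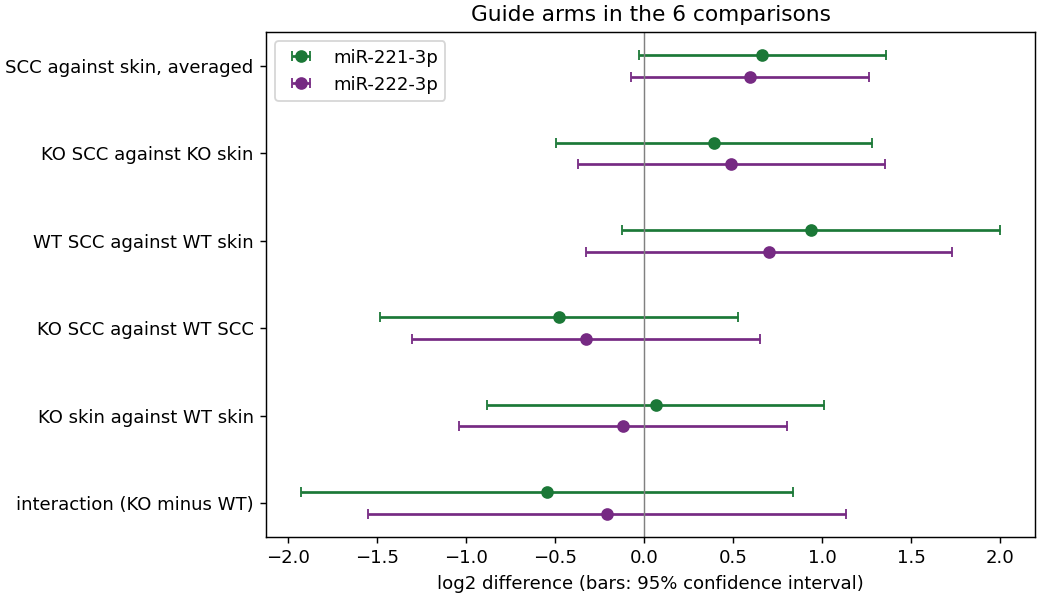
Log2 difference of miR-221-3p and miR-222-3p in each of the 6 comparisons, with 95% confidence intervals from limma. All 12 intervals include 0, and the averaged SCC difference of miR-221-3p, from -0.03 to 1.36, comes nearest to leaving it.

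Marker miRNAs of cell types were summed in each library and set beside the 2 high libraries, KO SCC library 2 and WT SCC library 1. The summed linear level of the 2 endothelial markers, the arms of miR-126, was 66940 in KO SCC library 2 and 66100 in WT SCC library 1. That is inside the range of SCC libraries, which was 59900 to 92500 in KO SCC and 66100 to 81400 in WT SCC, against 47400 to 53100 in KO skin and 53300 to 63000 in WT skin. The 4 leukocyte markers summed to 61600 in KO SCC library 2, the highest of all, and to 31400 in WT SCC library 1, the lower of the 2 WT SCC libraries. Over groups they ranged from 16000 to 61600 in KO SCC, 31400 to 42400 in WT SCC, 19600 to 25200 in KO skin and 18700 to 25800 in WT skin. The 4 smooth muscle and pericyte markers summed to 369000 in KO SCC library 2 and 193000 in WT SCC library 1, within a range of 139000 to 369000 in KO SCC, 193000 to 219000 in WT SCC, 371000 to 627000 in KO skin and 159000 to 308000 in WT skin. The 5 keratinocyte markers summed to 313000 in KO SCC library 2, the lowest of the SCC libraries, and to 409000 in WT SCC library 1, the next lowest. Their range was 313000 to 589000 in KO SCC, 409000 to 463000 in WT SCC, 288000 to 367000 in KO skin and 297000 to 410000 in WT skin. No marker of these 4 lists was at the floor in any library. Their part in the levels of miR-221 and miR-222 was not tested.

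Between tissues, 1 of the 2 endothelial markers was higher in SCC, miR-126-5p (0.50 ± 0.17, adjusted p = 0.0324), and miR-126-3p was not called (0.27 ± 0.16, adjusted p = 0.190). The call of miR-126-5p was lost on leaving out any of 8 of the 12 libraries. Of the 4 leukocyte markers 2 were higher in SCC, miR-142-3p (1.19 ± 0.30, adjusted p = 0.00889) and miR-223-3p (1.20 ± 0.33, adjusted p = 0.0125), and this count was 1 without WT SCC library 1 and 3 without KO SCC library 3. With the title number as a replicate block it was 0. Over all tested miRNAs, 20.4% were called higher and 21.5% lower in that comparison. Of the smooth muscle markers 1 of 4 was lower, miR-145a-3p (-1.79 ± 0.30, adjusted p = 0.000719). Both melanocyte markers were lower, miR-204-5p (-3.94 ± 0.39, adjusted p = 2.58e-05) and miR-211-5p (-3.0 ± 0.68, adjusted p = 0.00479). Of the keratinocyte markers, miR-203-3p was lower beside the higher miR-205-5p, and the 3 tested miR-200 miRNAs were not called.

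The guide arms moved together between tumours. Across the 6 SCC libraries, Pearson's r of miR-221-3p and miR-222-3p was 0.918 (exact permutation p = 0.0139, adjusted p = 0.0416 over 6 relations) and Spearman's rho was 0.886 (exact permutation p = 0.0333), which did not pass after adjustment (adjusted p = 0.0666). Without KO SCC library 2 and WT SCC library 1, the libraries farthest from the median of miR-221-3p, r over the other 4 was 0.851. In the 6 skin libraries, where both arms varied less than in SCC, r was 0.296 and rho 0.314 (exact permutation p = 0.557 and 0.564, adjusted p = 0.668 and 0.677), and r was -0.3 without the 2 farthest libraries. The libraries differ in genotype within each tissue, and all values share the normalization of their library. How many other miRNAs reach such an r across the SCC libraries was not counted. For the other profiles nearest to miR-221-3p, given below, it ran from 0.601 (miR-322-5p) to 0.862 (miR-29b-3p).

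The level of miR-222-3p relative to miR-221-3p overlapped between all groups, and its shift between SCC and skin did not pass the test. Within a library, miR-222-3p was lower by 1.95- to 2.49-fold in KO SCC, by 3.22- and 1.81-fold in WT SCC libraries 1 and 2, by 1.96- to 3.09-fold in KO skin and by 1.80- to 2.20-fold in WT skin. The mean log2 difference of miR-222-3p from miR-221-3p was -1.12 ± 0.15 in KO SCC (SD, n = 4), -1.27 ± 0.58 in WT SCC (n = 2), -1.22 ± 0.36 in KO skin (n = 3) and -1.04 ± 0.17 in WT skin (n = 3). Between SCC and skin, averaged over genotypes, this difference shifted by -0.07 (two-sided exact permutation p = 0.737 over 350 arrangements of tissue within genotype, smallest possible 0.00286). In the KO libraries alone the shift was 0.10 (exact permutation p = 0.686) and in the wild-type libraries alone -0.24 (exact permutation p = 0.5, smallest possible 0.1). The averaged shift was 0.14 without WT SCC library 1 and -0.28 without WT SCC library 2, so these libraries do not establish that the ratio is the same. Levels of different miRNAs also carry the capture bias of each sequence, which was not measured here.

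**Figure D3:**
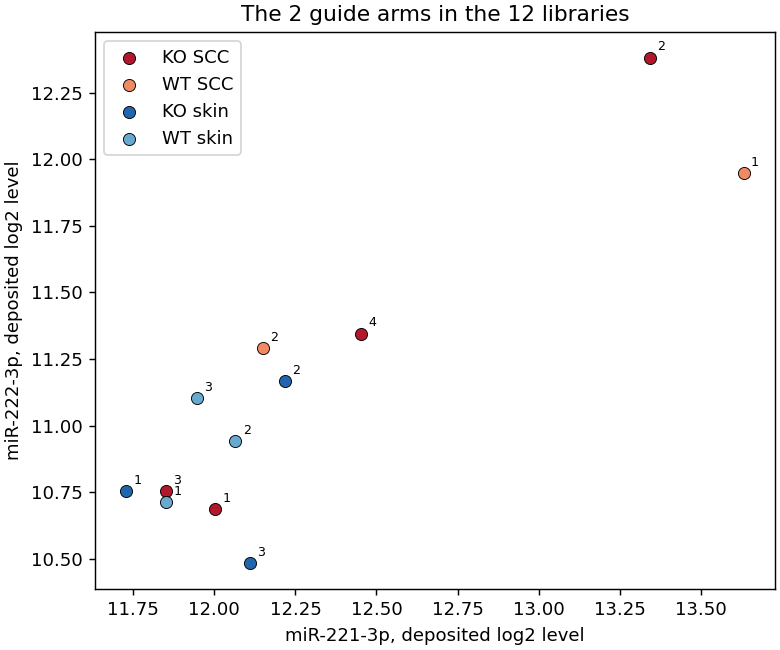
Deposited log2 level of miR-222-3p against that of miR-221-3p in the 12 libraries, coloured by group, with library numbers beside the points. The axes do not start at 0. KO SCC library 2 and WT SCC library 1 lie apart at the upper right, and KO SCC libraries 1 and 3 lie among the skin libraries.

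Across the 6 SCC libraries miR-221-5p followed the guide arms as well. Its r with miR-221-3p was 0.907 (exact permutation p = 0.0153, adjusted p = 0.0416; rho 0.886, exact permutation p = 0.0333, adjusted p = 0.0666), and this was 0.557 without KO SCC library 2 and WT SCC library 1, so the relation rests largely on those libraries. With miR-222-3p its r was 0.925 (exact permutation p = 0.0208, adjusted p = 0.0416, with the same rho and p). That r was 0.963 without KO SCC libraries 1 and 2, the farthest from the median of miR-222-3p. WT SCC library 1 stays in that value, so it cannot show whether this relation rests on the high libraries. The r without KO SCC library 2 and WT SCC library 1 was not computed for it. In skin, r of miR-221-5p was -0.801 with miR-221-3p (exact permutation p = 0.0722, adjusted p = 0.108; rho -0.829, exact permutation p = 0.0583, adjusted p = 0.0874) and -0.0858 with miR-222-3p (exact permutation p = 0.886, adjusted p = 0.886; rho -0.143, exact permutation p = 0.803, adjusted p = 0.803). Without the 2 farthest skin libraries these were -0.673 and -0.968. miR-222-5p was left out of these relations because it was at the floor in 3 libraries.

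A measure that differed between the tissues was the balance of the miR-221 arms. The guide arm exceeded the 5p arm by a log2 difference of 4.85, 4.44, 5.52 and 5.27 in KO SCC libraries 1 to 4, and of 4.97 and 4.43 in WT SCC libraries 1 and 2. It exceeded it by 3.37, 4.58 and 4.56 in KO skin libraries 1 to 3, and by 3.47, 3.85 and 4.04 in WT skin libraries 1 to 3. In linear terms the excess was 21.6- to 45.7-fold in SCC and 10.4- to 23.9-fold in skin, and 4 of the 6 SCC libraries were above every skin library. Averaged over genotypes the excess was 1.84-fold larger in SCC (log2 difference 0.88, two-sided exact permutation p = 0.0114 over 350 arrangements, smallest possible 0.00286). The shift was 0.85 in KO libraries alone (exact permutation p = 0.114) and 0.91 in wild-type libraries alone (exact permutation p = 0.1, the smallest possible). Between genotypes the shift was 0.32 in SCC (exact permutation p = 0.467) and 0.38 in skin (exact permutation p = 0.4). Leaving out any of the libraries in turn gave 0.68 to 1.02, with exact permutation p of 0.005 to 0.0333.

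A shift of arm balance of this size was common among the hairpins of these libraries. Limma over the 77 hairpins with both arms above the floor in all 12 libraries, added after seeing the data, gave miR-221 a shift of 0.88 ± 0.27 (adjusted p = 0.00652) and called 50.6% of the hairpins (39 of 77), 21 with a higher and 18 with a lower excess of the 3p arm in SCC. miR-221 ranked 31 of 77 by p and 32 by size, and the median absolute shift was 0.657. For miR-222 the guide arm exceeded the 5p arm by 40.7- to 137-fold in the 9 libraries with the 5p arm above the floor. In the libraries with the 5p arm at the floor, the excess was at least 165-fold in KO SCC library 1, at least 251-fold in WT SCC library 2 and at least 168-fold in WT skin library 1. No test was made of miR-222 for that reason.

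**Figure D4:**
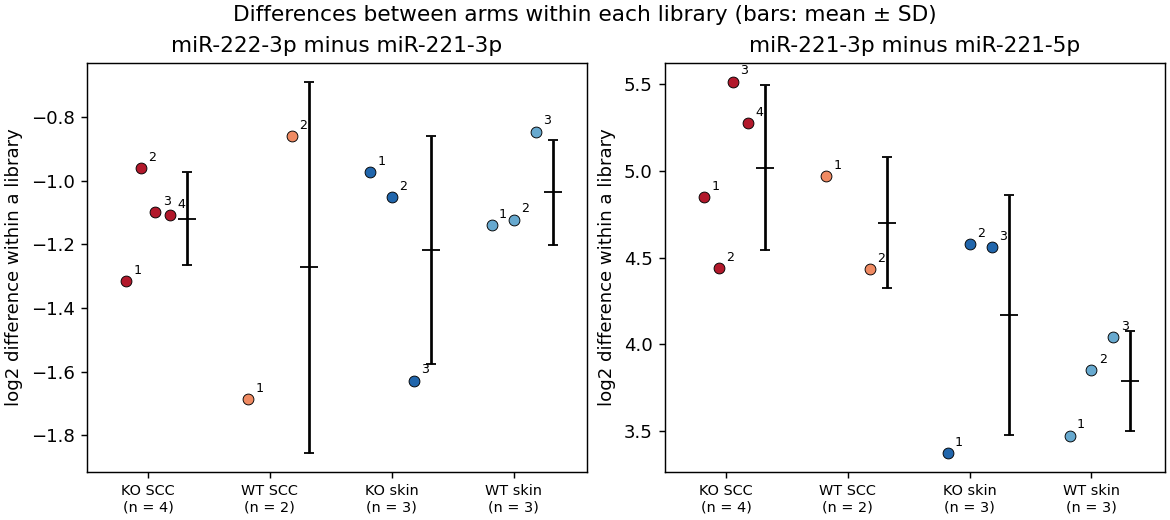
Log2 difference of miR-222-3p from miR-221-3p (left) and of miR-221-3p from miR-221-5p (right) within each library, by group, with bars for mean ± SD and library numbers beside the points. The left panel shows overlapping groups around -1.15, and in the right panel 4 of the 6 SCC libraries lie above every skin library.

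The guide arms can be set beside other miRNAs linked to growth. A list of 12 such miRNAs held the miR-17-92 cluster and the miR-106b-25 cluster, which carry cell cycle targets, and miR-21a, miR-31 and miR-155, known from tumours. It was drawn up with earlier results of these data known, so its counts are no independent evidence. Of these, 11 were tested, since miR-155-5p was at the floor in all libraries. All 11 were higher in SCC with genotypes averaged, where 20.4% of all tested miRNAs were called higher. Their median log2 difference was 1.69, against 0.04 over all 544. By p, the foremost were miR-21a-5p (2.91 ± 0.29, adjusted p = 2.70e-05), miR-92a-3p (2.81 ± 0.30, adjusted p = 3.94e-05), miR-20a-5p (1.69 ± 0.23, adjusted p = 0.000172) and miR-93-5p (1.22 ± 0.17, adjusted p = 0.00026). The smallest difference in the list, 1.12 for miR-19b-3p, was larger than the 0.66 of miR-221-3p and the 0.60 of miR-222-3p. That gap was not tested. Of the 11, 10 were called higher in KO mice (16% of all tested miRNAs) and 5 in wild-type mice (8.82% of all tested miRNAs), and the 5 became 2 without WT SCC library 1 and 8 in a fit to the wild-type groups alone. None was called between genotypes in SCC or in skin, or for the interaction. The summed linear level of the list was 1260000 to 1460000 in KO SCC, 808000 to 1260000 in WT SCC, 116000 to 281000 in KO skin and 129000 to 179000 in WT skin. A linear sum is weighted to its most abundant members, and miR-21a-5p was among the 5 most abundant miRNAs of the table. How many like lists separate SCC from skin was not counted.

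A list of 16 miRNAs known to restrain growth, from the let-7, miR-15 and miR-34 families and miR-203, showed no common direction. In SCC 1 of 16 was called higher, against 20.4% of all tested miRNAs: miR-98-5p of the let-7 family (0.80 ± 0.21, adjusted p = 0.00952). Where 21.5% of all tested miRNAs were called lower, 3 of the 16 were (fewer without WT SCC library 1). These were miR-195a-5p (-1.42 ± 0.26, adjusted p = 0.00138), miR-497-5p (-0.74 ± 0.19, adjusted p = 0.00997), which is encoded beside it, and miR-203-3p (-0.60 ± 0.21, adjusted p = 0.0416), which promotes keratinocyte differentiation. The call of miR-203-3p was lost on leaving out any of 7 of the 12 libraries, and also under median-ratio scaling, quality weights, no trend or robust moderation, and without the 5 most abundant miRNAs. The median over the 16 was -0.07, against 0.04 over all tested, and the summed linear level was 708000 to 857000 in KO SCC, 703000 to 780000 in WT SCC, 733000 to 789000 in KO skin and 696000 to 861000 in WT skin. The study chose miR-497-5p on these mice, so its place in the list is not independent evidence.

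**Figure D5:**
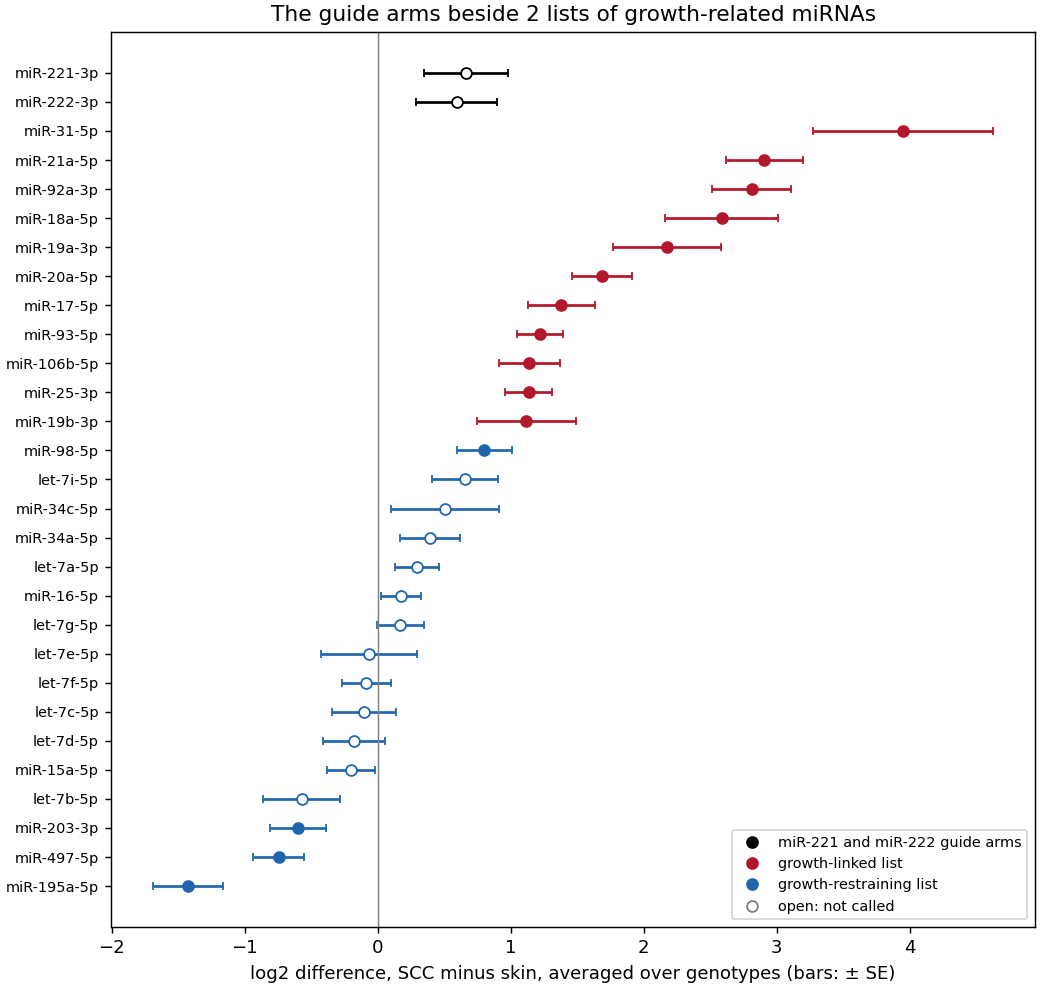
Log2 difference of SCC from skin, averaged over genotypes, for miR-221-3p and miR-222-3p (black), the 11 tested growth-linked miRNAs (red) and the 16 growth-restraining miRNAs (blue), with bars for ± SE and open symbols for miRNAs not called. The guide arms lie at 0.66 and 0.60, to the left of every growth-linked miRNA.

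Among the 315 miRNAs above the floor in all libraries, the profile nearest to that of miR-221-3p was miR-222-3p, and the reverse also held. Likeness was the root mean square (RMS) difference of log2 profiles over the 12 libraries, each centred on its mean. It was 0.259 for the pair, against a median of 0.889 from miR-221-3p and 0.86 from miR-222-3p to the other miRNAs. Next to miR-221-3p came miR-29b-3p (0.358), a miRNA with collagen messages among its targets, miR-186-5p (0.365), miR-151-3p (0.396) and miR-322-5p (0.396), the mouse counterpart of human miR-424. Next to miR-222-3p came let-7i-5p (0.338), miR-29a-3p (0.359), miR-322-5p (0.389) and miR-101b-3p (0.407). Of these, miR-151-3p was called higher in SCC (0.79 ± 0.21, adjusted p = 0.0123), and let-7i-5p just missed the threshold (0.66 ± 0.25, adjusted p = 0.0512). Across the 6 SCC libraries r with miR-221-3p was 0.862 for miR-29b-3p and 0.765 for miR-186-5p, and r with miR-222-3p was 0.825 for let-7i-5p and 0.848 for miR-29a-3p. These are descriptions, since a small RMS difference fixes much of r.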

How the data were processed

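The table that the authors deposited gives log2 values for 1251 miRNAs, with 12 columns that each match the title of a sample. From the values, the deposited log2 scale is quantile normalized between libraries, with a floor at a linear level of 10. Per the submitters' processing notes, the build named is mm10. No source used here gives the aligner, the counter or the miRBase release. Rows entered the test if 2 or more libraries exceeded the floor, which 544 did. 647 rows stayed at the floor throughout. The model was a mean for each of the 4 groups on these log2 values, fitted with limma 3.58.1 (R 4.3.3) using an abundance trend and robust moderation. It had 8 residual degrees of freedom and a median prior of 3.2. Benjamini-Hochberg adjustment ran over all tested rows of a comparison. An adjusted p under 0.05 was called. Differences within a library were tested by exact permutation of tissue labels within genotype, in Python 3.11.15 with numpy 2.4.6 and pandas 2.3.3. The fits were tested on simulated data.

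The members and lists were chosen with earlier results of these data known. Named miRNAs were the 4 arms, those sharing the guide seed, the 5 profiles nearest to each guide arm by RMS difference, and up to 4 members of each list with the smallest p for averaged SCC against skin. miR-19b-3p was named after its value was seen, as were miR-155-5p and the remaining marker miRNAs. Alternatives were other scalings, filters, pseudocounts of 1 and 10, quality weights, a variance without trend, fits on the groups of a comparison alone, 1 library left out at a time and a replicate block. Read depth is unknown, so no counting interval is given. Positions are those of GRCm38.p6 with GENCODE gene annotation.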

Additional observations from a re-analysis of the deposited data

How the results depend on the processing

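Of 544 recomputed differences of the 4 arms, over 24 results, 510 kept their direction and their side of the threshold. The 2 that came to be called were those of miR-221-3p without WT SCC library 2 (averaged and in wild-type mice), and 32 that were called nowhere changed sign. The cause was not tested.

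Title numbers shared by groups cannot pair all libraries by mouse, since number 3 is shared by a KO SCC and a WT skin library. The correlation of deviations over the 6 shared numbers was -0.146 to 0.0749, which cannot decide whether any number marks a shared mouse or batch. With the title number as a replicate block, KO skin against WT skin became -0.47 for miR-221-3p and -3.20 for miR-222-5p, KO SCC against WT SCC became -3.21 for miR-222-5p, its interaction became -0.0048, and WT SCC against WT skin became -0.11 for miR-221-5p. The block also moved KO SCC against WT SCC to -0.88 for miR-221-3p and -1.21 for miR-222-3p, and KO skin against WT skin to -1.11 for miR-222-3p. None was called. Only title number 3 joins the genotypes, through KO SCC library 1 and WT skin library 3. Each blocked KO against WT value thus rests on that pair, and miR-222-5p was at the floor in that KO SCC library. The block leaves fewer residual degrees of freedom than the main fit. It gave 123 calls in place of 186 in KO SCC against KO skin, and 41 in place of 99 in WT SCC against WT skin. In KO SCC against WT SCC it gave 0 in place of 1. With quality weights the last wild-type value was -0.036, KO skin against WT skin was 0.045 for miR-222-3p, and 22 miRNAs in place of 0 were called there. That skin difference of miR-222-5p was -0.050 with normalization repeated and -0.0029 without the 5 most abundant miRNAs. KO SCC against WT SCC had 0 calls with the stricter filter or with its own groups alone, and 2 without both the trend and robust moderation.

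With 1 library left out at a time, the difference for miR-221-3p was -1.22 to 0.26 in KO SCC against WT SCC, -0.036 to 0.21 in KO skin against WT skin, 0.29 to 1.04 in SCC against skin (averaged), 0.20 to 1.68 in WT SCC against WT skin and -1.28 to 0.20 in the interaction. The difference for miR-221-5p was -0.47 to 0.019 in SCC against skin (averaged) and -0.45 to 0.50 in WT SCC against WT skin. The difference for miR-222-3p was -0.30 to 0.042 in KO skin against WT skin and -0.57 to 0.12 in the interaction. The difference for miR-222-5p was -0.14 to 0.86 in KO SCC against KO skin, -1.17 to 1.51 in KO SCC against WT SCC, -0.49 to 0.68 in KO skin against WT skin, -0.37 to 0.96 in SCC against skin (averaged), -1.10 to 1.58 in WT SCC against WT skin and -1.22 to 1.45 in the interaction. The shift of miR-222-3p relative to miR-221-3p was -0.28 to 0.14 in SCC against skin. 
Over the same left-out libraries, called miRNAs numbered 129 to 196 in KO SCC against KO skin, 30 to 116 in WT SCC against WT skin, 0 to 10 in KO SCC against WT SCC, 0 to 2 in KO skin against WT skin and 0 to 10 in the interaction. The shift of the miR-221 arm balance kept its direction and its side of the threshold under every alternative run, and was 0.88 in the added limma fit. Growth-linked miRNAs called higher in SCC (averaged) numbered 10 or 11 under all of these settings.

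The groups hold 2 to 4 libraries, and WT SCC only 2. Levels of miR-222-5p near the floor are understated in their differences.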

Other observations

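Other miRNAs encoded on the X chromosome were counted, since miR-221 and miR-222 lie there. Of 127 such rows, 41 were tested. In SCC 9 were called higher and 2 lower with genotypes averaged, against 20.4% higher and 21.5% lower over all tested miRNAs, and the median log2 difference was 0.20, against 0.04 over all. Those with the smallest p were miR-188-5p (2.44 ± 0.36 SE, adjusted p = 0.000353, limma), miR-98-3p (2.58 ± 0.43, adjusted p = 0.000667) and miR-5617-3p (2.87 ± 0.51, adjusted p = 0.00103). The count of 9 also holds miR-20b-5p, which entered the test through the 2 WT SCC libraries and was at the floor in all others. It was likewise the 1 miRNA called in KO SCC against WT SCC. A row chosen by its high group, with no spread elsewhere, had to differ, so no value or p is given for it and its calls support nothing. The summed linear level of the 127 rows was 23800 to 40600 in KO SCC, 20800 to 27100 in WT SCC, 17600 to 19900 in KO skin and 19200 to 21800 in WT skin.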
